A study of Mus musculus with 30 samples.

Results

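Prg2 encodes proteoglycan 2, the precursor of eosinophil major basic protein, a strongly basic protein stored in the granules of eosinophils. Its signal was followed in whole salivary glands of female mice of the strain NOD.H-2h4, in which autoimmune disease of this gland appears with age. The mice received 1 intraperitoneal injection at 4 weeks of age, either of an antibody against CD40L or of a human IgG1 control antibody, both at 20 mg/kg. Glands were taken at 8, 16 or 24 weeks of age, which gave 6 groups of 5 arrays. All 30 arrays came from this strain and sex, every control mouse had received the human control antibody, and no untreated gland was analysed here. The labels call the arrays biological replicates.

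Prg2 was 1 of 18193 genes named by the array annotation, and 1 of the 45101 probe sets measured it and named no other gene. The gene was chosen by its own measured pattern: its group mean was higher at each later week in control mice, and less so after anti-CD40L. Its levels and differences are therefore given as a description, with the spread between arrays and with no test.

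Major basic protein is made as an inactive precursor whose acidic part masks the basic part until the granule matures. Released from eosinophils, it damages parasites and host cells and can activate mast cells and basophils. CD40L is a T cell surface protein that binds CD40, carried by B cells, dendritic cells and macrophages, and this signal drives germinal centres and the formation of long-lived plasma cells. In the salivary glands of such mice, lymphocytes gather in foci with age, and antibody-secreting plasma cells collect near the ducts, where they make much of the IgA of saliva.

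The 30 arrays had medians between 5.487 and 5.537 on the log2 scale. Of 7 salivary gland markers, all 7 passed the filter on low values, and their mean level lay between 10.876 and 13.065 over the arrays. The salivary amylase gene Amy1 ranged from 6.575 to 13.695 over the 30 arrays, with an SD of 3.20 within control week 8 and of 0.22 within anti-CD40L week 8. Amy1 and Prg2 deviated from their group means with r = 0.07 over 30 arrays. The 5 arrays that correlated least with the others had medians of 0.9527 to 0.9719, against at least 0.9789 elsewhere. They were control week 8 replicates 3 and 4, control week 24 replicate 1, and anti-CD40L week 8 replicates 1 and 3. The Prg2 differences without them are given beside the main values.

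At 8 weeks of age, Prg2 was low in both groups. Control replicates 1 to 5 read 3.613, 3.882, 4.091, 3.992 and 3.906 (log2), a mean of 3.90 ± 0.18 (SD, n = 5). Anti-CD40L replicates 1 to 5 read 3.751, 3.943, 3.976, 3.764 and 4.090, a mean of 3.90 ± 0.15 (SD, n = 5). The groups overlapped almost wholly, and the difference was 0.008 ± 0.22 (SE). On a control array the Prg2 value stood at the 12.7th percentile of that array's probe sets (group median), and at the 13.5th percentile after anti-CD40L. At a signal this low, a weak transcript level and none cannot be told apart. Differences from these groups, and from the similar anti-CD40L week 16 values, are therefore given on the log2 scale of the array only, with no fold, since they may understate the change in transcript.

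At 16 weeks the groups had separated. The control arrays read 5.564, 5.462, 4.726, 5.909 and 4.926, with a mean of 5.32 ± 0.48 (SD, n = 5). The anti-CD40L arrays read 4.116, 3.912, 4.051, 3.819 and 4.045, with a mean of 3.99 ± 0.12 (SD, n = 5). The groups did not overlap: the treated arrays reached at most 4.116 and the controls at least 4.726. The difference was -1.33 ± 0.22 (SE) on the log2 scale. Within their arrays, the control values had moved to the 49.0th percentile (group median), while the treated values stayed at the 16.7th.

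At 24 weeks Prg2 was highest in control glands. The control arrays read 6.366, 7.292, 6.646, 6.099 and 7.329, a mean of 6.75 ± 0.55 (SD, n = 5). The anti-CD40L arrays read 4.520, 5.103, 5.624, 4.643 and 4.688, a mean of 4.92 ± 0.45 (SD, n = 5). All treated arrays were again below all controls, and the highest treated array, replicate 3, lay below the lowest control array, replicate 4. The difference was -1.83 ± 0.22 (SE), 3.56-fold lower after anti-CD40L, and -1.93 without the 5 arrays of low correlation. The 3' minus 5' difference of control transcripts, a gap that grows as RNA degrades, averaged 0.41 ± 0.12 in control and 0.20 ± 0.04 in treated glands at this age (SD, n = 5 each, log2). With that difference as a covariate the Prg2 value was -1.81 ± 0.26 (SE), and with Amy1 as a covariate -1.83 ± 0.22 (SE). The control values stood at the 67.1th percentile of their arrays and the treated values at the 32.8th (group medians). In whole gland, fewer cells that carry a transcript and less of it per cell cannot be told apart.

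**Figure D1:**
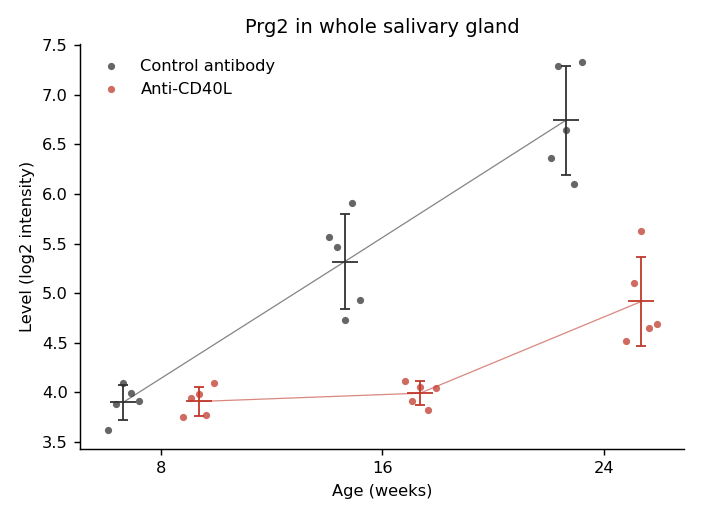
Prg2 level (log2 intensity) by age in weeks; each point is 1 array, horizontal marks are means and bars are SD of 5 arrays, black for control antibody and red for anti-CD40L. The groups coincide at week 8, with means of 3.90, and do not overlap at weeks 16 and 24, when the control means are 5.32 and 6.75.

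Across ages in control glands, Prg2 was higher by 1.42 ± 0.22 (SE) at week 16 than at week 8. From week 16 to week 24 it was higher by a further 1.43 ± 0.22 (SE), or 2.69-fold. From week 8 to week 24 the difference was 2.85 ± 0.22 (SE), and 3.04 without the 5 arrays of low correlation. The 3 control ages did not overlap in any array.

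After anti-CD40L the course was later. Between weeks 8 and 16 the difference was 0.08 ± 0.22 (SE), with overlapping arrays. Between weeks 16 and 24 it was 0.93 ± 0.22 (SE), and every week 24 array lay above every week 16 array. Over the whole span Prg2 was higher by 1.01 ± 0.22 (SE). The change from week 8 after anti-CD40L minus that in controls was thus -1.34 ± 0.31 (SE) at week 16 and -1.84 ± 0.31 (SE) at week 24 on the log2 scale. These values chose the gene and are not tested.

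In order of level, control week 24 came first and control week 16 next, 1.43 apart and without overlap. Anti-CD40L week 24 followed 0.40 below control week 16, less than the pooled SD of 0.47 of these groups, and their arrays overlapped. Anti-CD40L week 16 lay 0.93 lower, without overlap. The last 3 groups, anti-CD40L week 16, anti-CD40L week 8 and control week 8, differed by 0.08 and 0.008 between neighbours and overlapped. Of the 30 arrays, 8 had Prg2 above their own median: all 5 control arrays at week 24, 2 control arrays at week 16 and 1 anti-CD40L array at week 24. The spread followed the level, with group SDs of 0.12 to 0.18 in the 3 low groups and 0.45 to 0.55 in the 3 higher ones.

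Prg2 was then set beside other transcripts of eosinophils. Of 13 eosinophil markers, 7 had a probe set that named them alone: Epx (eosinophil peroxidase), Prg3 (proteoglycan 3, the second major basic protein), Ccr3 (the eotaxin receptor), Siglecf (an eosinophil surface lectin), Il5ra (the IL-5 receptor chain), Alox15 (a lipoxygenase) and Gata1 (a transcription factor of the lineage). None of the 7 passed the filter on low values, so 0 of 7 were tested with the other genes. All but Gata1 were below the array median on all 30 arrays, and Gata1 was above it on 1. Prg2 was above it on 8.

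Over the 6 groups, the means of the 7 genes spanned 0.17 (Siglecf) to 0.41 (Gata1) on the log2 scale, against 2.85 for Prg2. Epx, another granule protein gene, had its lowest group mean at 4.31 and its highest at 4.55. In control week 24 its arrays read 4.749, 4.653, 4.562, 4.236 and 4.542, and in control week 8 they read 4.233, 4.488, 4.660, 4.680 and 4.489. These arrays overlapped, whereas those of Prg2 in the same glands did not. The mean of the 7 genes was 4.39 ± 0.09 in control week 8, 4.19 ± 0.05 in control week 16 and 4.35 ± 0.04 in control week 24 (SD, n = 5 each).

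In a fit of all 18193 genes without the filter, 0 of the 7 genes passed an adjusted p of 0.05 (limma, Benjamini-Hochberg) between control week 24 and week 8, where 8.54% of genes did, and 1 had an unadjusted p under 0.05. Their differences ran from -0.22 to 0.07, with a median of -0.03 against 0.01 over all genes, and the lowest of their adjusted p-values was 0.146. Between treatments at week 24 again 0 of 7 passed, where 5.71% of genes did, and 1 had an unadjusted p under 0.05. The differences ran from -0.23 to 0.09 with a median of -0.14 against -0.005 over all genes, and the lowest adjusted p was 0.173. Of the 12998 genes past the filter, 3860 had an unadjusted p under 0.05 between control weeks 8 and 24, and 3853 between treatments at week 24. For Epx the difference at week 24 was -0.23 ± 0.11 (SE), with an unadjusted p of 0.0361 and an adjusted p of 0.173 in limma. Siglecf had an unadjusted p of 0.0299 for control week 24 minus week 8, with a lower level at week 24 (-0.17 ± 0.07, SE; adjusted p 0.146). The 7 genes did not lie at 1 level: the median percentile within the array was 3.23 for Siglecf, 7.98 for Ccr3 and 13.9 for Il5ra, and 25.7 for Epx, 34.1 for Alox15, 35.9 for Prg3 and 40.2 for Gata1. Prg2 after anti-CD40L at week 24, at the 32.8th percentile, lay among the medians of the latter 4. A like percentile of different probe sets need not mean a like transcript level. For the 7 genes, all under the filter, a weak transcript level and none cannot be told apart. Their small spans and differences may therefore understate a change in transcript.

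**Figure D2:**
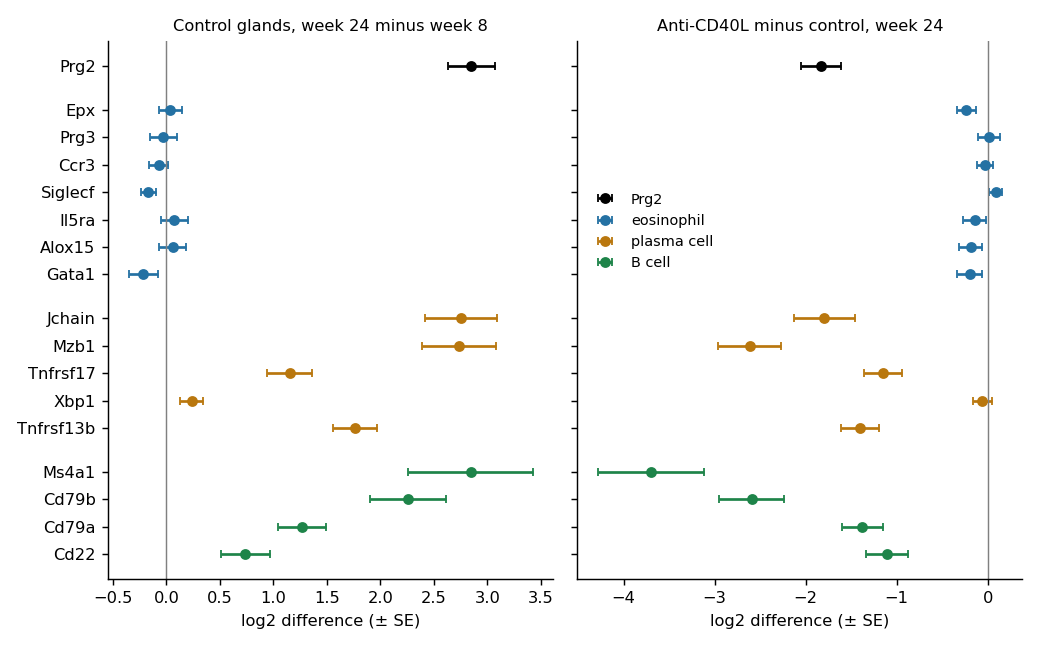
Differences on the log2 scale (points) with their SE (bars) for Prg2, 7 eosinophil, 5 plasma cell and 4 B cell genes: control week 24 minus week 8 (left) and anti-CD40L minus control at week 24 (right). Prg2 lies at 2.85 and -1.83, and the eosinophil genes lie between -0.23 and 0.09. Of the plasma cell genes, Jchain and Mzb1 lie nearest to Prg2 on the left, and Xbp1 (0.24 and -0.06) lies near 0 in both.

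Of 9 genes for eosinophil attraction and growth, 3 passed the filter. Between control week 8 and week 24, Ccl11 (eotaxin) rose by 0.94 ± 0.31 (SE; adjusted p 0.0413) and Il33 (an alarmin) by 0.80 ± 0.23 (SE; adjusted p 0.0225), while Prg2 was higher by 2.85. That made 2 of 3 higher, where 12.5% of all genes passed in either direction and 8.49% as higher. The call for Ccl11 was lost without 1 array in 6 of 10 cases (highest adjusted p 0.116, without control week 8 replicate 5), and that for Il33 in 3 of 10 (highest 0.101, without control week 24 replicate 2). By treatment, 0 of the 3 passed at week 8, 16 or 24, where 0.0692%, 1.88% and 9.46% of all genes passed. The limma p before adjustment was under 0.05 for 1, 0 and 0 of the 3, and for 2019, 1910 and 3853 of the 12998 genes tested. The Prg2 difference was -1.83 at week 24. The Ccl11 difference there was 0.11 ± 0.31 (SE; adjusted p 0.829), and that for Il33 was 0.01 ± 0.23 (SE; adjusted p 0.976). Il5, the growth factor of eosinophils, was below the array median in every group. In the limma fit without the filter, it was lower at control week 24 than at week 8 (-0.33 ± 0.08, SE; adjusted p 0.0139). Il4 was also lower there, without passing (-0.31 ± 0.13, SE; adjusted p 0.127). Of the 9 genes, 2 passed as higher and 1 as lower in that fit, where 8.54% of genes passed in either direction.

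Basophils and mast cells also carry major basic protein. Of 11 genes of these cells, 6 passed the filter. By treatment at week 8, 16 or 24, or in controls between weeks 8 and 24, 0 of the 6 passed. In the same order, 0.0692%, 1.88%, 9.46% and 12.5% of all genes passed in limma, so 0 of 6 is near these shares. An unadjusted p under 0.05 was found for 0, 0, 2 and 2 of the 6, and for 2019, 1910, 3853 and 3860 of the 12998 genes tested. Cma1 (mast cell chymase) had a treatment difference at week 24 of 0.62 ± 0.23 (SE; adjusted p 0.0796), opposite in sign to that of Prg2. Of 11 neutrophil and promyelocyte genes, 8 passed the filter. Of these, 2 rose by treatment at week 16, S100a8 among them (1.37 ± 0.34, SE; adjusted p 0.0357), while the Prg2 difference there was -1.33. In that comparison 1.31% of all genes passed as higher and 0.577% as lower. At week 24, 0 of the 8 passed by treatment (limma), where 9.46% of all genes passed in either direction. All 8 differences were below 0, as that of Prg2 was, with a median of -0.20 against 0.03 over all genes tested. An unadjusted p under 0.05 was found for 2 of the 8 and for 3853 of the 12998 genes tested. S100a8 differed by -0.79 ± 0.34 (SE; adjusted p 0.124), S100a9 by -0.74 ± 0.29 (SE; adjusted p 0.0921) and Elane (neutrophil elastase) by -0.05 ± 0.12 (SE; adjusted p 0.789). The part of these cells in the Prg2 difference was not tested.

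The genes whose course was most like that of Prg2 were found by Pearson's r over the other 12997 tested genes. Over the 30 arrays, the first 8 had r of 0.871 to 0.951, and 3 of them were immunoglobulin variable genes. The others were St6gal1 (0.946), which adds sialic acid to glycoproteins and to IgG, Mzb1 (0.915), a chaperone of antibody assembly, Tnfrsf13b (0.880), the receptor TACI of B cells and plasma cells, Epsti1 (0.879), an interferon-induced gene, and Slpi (0.871), a secreted protease inhibitor of epithelia and phagocytes. These arrays share group and week, so r over all 30 reflects the group means as well as the arrays within groups.

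Over the 6 group means, the first 8 had r of 0.985 to 0.994. They held 1 immunoglobulin variable gene, and the others were Evi2a, St6gal1, Cfp (properdin of the complement system), Tnfsf10 (the death ligand TRAIL), Casp1 (the caspase of inflammasomes), Sla and Fpr2 (a phagocyte receptor). With 6 points, many genes of like course reach such values.

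For deviations from the group means, which leave out treatment and age, the first 8 had r of 0.722 to 0.779. Again 1 was an immunoglobulin variable gene, and the others were Spib (0.779), a transcription factor of B cells, St6gal1 (0.745), Adcy7, Relb (an NF-kappaB subunit), Kbtbd11, Il7r (the IL-7 receptor of lymphocytes) and Chsy1 (a chondroitin sulphate synthase). St6gal1 was among the first 8 by all 3 measures.

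Since these genes were picked for a course like that of Prg2, their values are a description, with no test. St6gal1 in control glands read 6.77 ± 0.32 at week 8, 7.73 ± 0.45 at week 16 and 8.50 ± 0.46 at week 24 (SD, n = 5 each). After anti-CD40L it read 7.02 ± 0.14, 7.04 ± 0.09 and 7.49 ± 0.30 at the same ages (SD, n = 5 each), flat to week 16 and then higher, in the same order as Prg2. The control difference between weeks 24 and 8 was 1.73 ± 0.20 (SE) and the treatment difference at week 24 was -1.01 ± 0.20 (SE). As the median of its probe sets in place of the brightest, St6gal1 differed by 0.84 and -0.66. Slpi differed by treatment by -1.73 ± 0.27 (SE) at week 16, when the Prg2 difference was -1.33, and by -2.08 ± 0.27 (SE) at week 24, when that of Prg2 was -1.83.

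**Figure D3:**
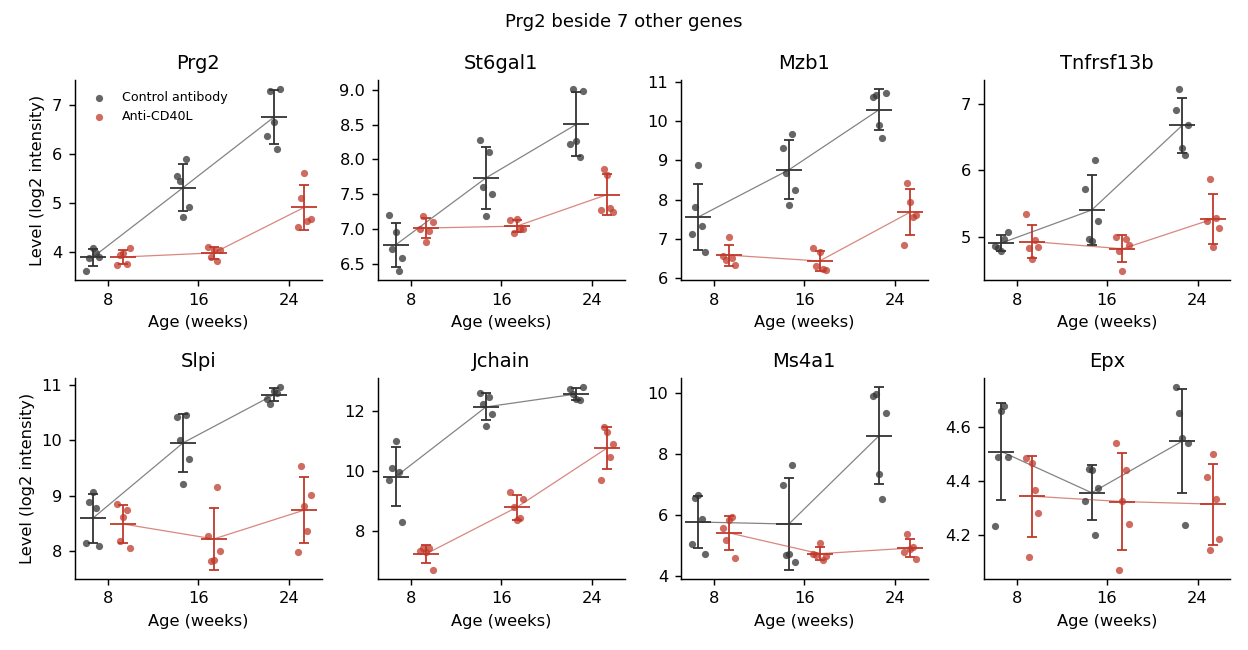
Level (log2 intensity) by age in weeks for Prg2, 5 genes of plasma cells, B cells or similar course to Prg2 (St6gal1, Mzb1, Tnfrsf13b, Slpi, Jchain), the B cell gene Ms4a1 and the eosinophil gene Epx; points are arrays, marks and bars are mean and SD of 5 arrays, and each panel has its own axis. The Epx axis spans under 1 log2 unit, against about 4 for Prg2.

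Plasma cell genes were set beside Prg2 in each comparison. Of 16 listed, 14 passed the filter. Between control weeks 8 and 24, 6 of 14 rose and 0 fell, where 8.49% of all genes passed as higher, with a median of 0.47 against 0.05 over all genes tested. They included Jchain, the joining chain of IgA and IgM (2.76 ± 0.34, SE; adjusted p 7.62e-06), Mzb1 (2.73 ± 0.34; 1.15e-05), Tnfrsf13b (1.77 ± 0.21; 3.47e-06) and Tnfrsf17, the receptor BCMA (1.15 ± 0.21; 0.00115). Mzb1 and Tnfrsf13b are also among the genes picked above for their likeness to Prg2, so their p-values are not independent of that choice. Xbp1, a transcription factor of secretory cells that gland cells also carry, did not pass there (0.24 ± 0.10, SE; adjusted p 0.128) or by treatment at week 24 (-0.06 ± 0.10, SE; adjusted p 0.715). The count was 10 without control week 8 replicate 1 and 10 without control week 24 replicate 1. At week 24, 6 of 14 fell and 0 rose by treatment, where 3.49% of genes passed as lower, with a median of -0.28 against 0.03 over all genes tested. Mzb1 fell by 2.62 ± 0.34 (SE; adjusted p 0.000119) there, beside the Prg2 difference of -1.83. With the 3' minus 5' difference as a covariate, 2 of 14 passed. The filter asks for at least 5 arrays above the array median, the size of 1 group, so a gene can enter through control week 24 alone. Without the filter, 7 of 16 rose in controls between weeks 8 and 24 and 8 of 16 fell by treatment at week 24. Of all genes, 8.54% and 5.71% then passed in either direction. The part of the plasma cell signal in the Prg2 difference was not tested.

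At the earlier weeks, the plasma cell genes differed among themselves. At week 8, Jchain fell by 2.56 ± 0.34 (SE; adjusted p 0.00018), the single plasma cell gene of 14 to pass, where 0.0692% of all genes did, while Prg2 differed by 0.008 and Mzb1 by -0.97 ± 0.34 (SE; adjusted p 0.236). This Jchain call was lost when only the 2 groups compared were fitted. At week 16, 3 of 14 fell and 2 rose, where 0.577% of all genes passed as lower and 1.31% as higher. Of the 14 differences 8 were below 0 and 6 above, with a median of -0.12 against 0.02 over all genes tested. Jchain fell by 3.34 ± 0.34 (SE; adjusted p 7.34e-07) and Mzb1 by 2.32 ± 0.34 (SE; adjusted p 0.000358), beside -1.33 for Prg2. The count of 5 fell to 2 without control week 16 replicate 1, 2 or 4 or anti-CD40L week 16 replicate 4 or 5, and to 3 without control week 16 replicate 3.

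The late step after anti-CD40L, from week 16 to week 24, was 0.93 for Prg2. Over the same interval Jchain rose by 1.98 ± 0.34 (SE; adjusted p 0.00101), Igha, the IgA heavy chain, by 1.47 (adjusted p 0.00158) and Igk, the kappa light chain, by 1.26 (adjusted p 0.00166), where 5.38% of genes passed in either direction and 2.5% as higher. Mzb1 rose by 1.24 ± 0.34 (SE; adjusted p 0.0318), a call lost without 1 array in 7 of 10 cases (highest adjusted p 0.0904, without anti-CD40L week 24 replicate 2). The plasma cell list as a whole did not take this step: of 14 genes tested, 2 passed as higher and 1 as lower in limma. Of their differences 8 were above 0 and 6 below, with a median of 0.12 against 0.0085 over all genes tested. Tnfrsf13b did not pass (0.45 ± 0.21, SE; adjusted p 0.225). The B cell genes Ms4a1, which encodes CD20, and Cd79b, part of the B cell receptor, did not pass, with differences of 0.18 (adjusted p 0.914) and 0.28 (adjusted p 0.748).

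Of 14 B cell genes with a probe set, 11 passed the filter. In controls between weeks 8 and 24, 9 of 11 rose and 0 fell, where 8.49% of all genes passed as higher, with a median of 1.27 against 0.05 over all genes tested. By treatment at week 24, 9 of 11 fell and 0 rose, where 3.49% of all genes passed as lower, with a median of -1.19 against 0.03. With the 3' minus 5' difference as a covariate 3 of 11 passed at week 24, and with only the groups compared in the fit 3 of 11 passed there and 1 of 11 between control weeks 8 and 24. Ms4a1 fell by 3.70 ± 0.59 (SE; adjusted p 0.000887) and Cd79b fell by 2.59 ± 0.36 (SE; adjusted p 0.000149). As with the plasma cell genes, a B cell gene can pass the filter through control week 24 alone. Without the filter, 9 of 14 rose in controls between weeks 8 and 24 and 12 of 14 fell by treatment at week 24. Of all genes, 8.54% and 5.71% then passed in either direction. At week 16, 0 of 11 passed by treatment, where 0.577% of all genes passed as lower. All 11 differences were below 0 there, with a median of -0.45 against 0.02 over all genes tested. The Prg2 arrays did not overlap at that week, but overlap and an adjusted p are unlike measures. In limma 3 of 11 had an unadjusted p under 0.05, all lower, against 1910 of the 12998 genes tested in either direction. The unadjusted p of Cd79b was then 0.0224 (difference -0.87 ± 0.36, SE). Treated B cell genes at week 24 against week 8 numbered 0 higher and 1 lower of 11, where 23.6% of genes passed, and Prg2 was higher by 1.01. No plasma cell or B cell gene passed the limma test of the difference between the treatment's effects at weeks 24 and 8. There 0.00769% of genes passed. An unadjusted p under 0.05 was found for 4 of 14 and 9 of 11, all negative, and for 759 of the 12998 genes tested in either direction. Without control week 24 replicate 4, 1 plasma cell and 3 B cell genes passed, and without anti-CD40L week 24 replicate 2, 1 plasma cell gene did. Of 4 immunoglobulin constant genes, 3 fell at week 24 by treatment and 4 rose in controls between weeks 8 and 24, where 8.49% of all genes passed as higher. Of 7 T cell genes, 5 fell at week 24 by treatment, and 1 of 9 macrophage genes did, where 3.49% of all genes passed as lower.

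Within groups, Prg2 and the mean of the plasma cell genes deviated from their group means in the same direction in 5 of 5 arrays of control week 24, 5 of 5 of anti-CD40L week 24 and 4 of 5 of control week 16. This held in 3 of 5 arrays each of anti-CD40L weeks 8 and 16 and in 2 of 5 of control week 8. In control week 24, the highest Prg2 arrays were replicates 5 (7.329) and 2 (7.292), which had plasma cell list means of 8.99 and 9.08, against 8.64 to 8.78 in the other 3. The same 2 arrays had the highest St6gal1, at 8.986 and 9.012. In control week 16, the highest Prg2 arrays, replicates 4 (5.909) and 1 (5.564), had plasma cell means of 8.67 and 8.74, against 8.33 to 8.43 in the other 3. After anti-CD40L at week 24, replicates 3 (5.624) and 2 (5.103) had plasma cell means of 8.32 and 8.42, against 7.87 to 8.16 in the others. In the low groups the order could be opposite. Control week 8 replicate 1 had the lowest Prg2 of its group (3.613) and the highest plasma cell mean (8.072), and anti-CD40L week 16 replicate 4 had the lowest Prg2 (3.819) and the highest plasma cell mean (8.01). Nor did the Prg2 order follow single B cell or plasma cell genes everywhere. Control week 24 replicate 1 had the second highest Ms4a1 of its group (9.903) but only the fourth highest Prg2 (6.366). The same array also had the second highest Jchain (12.728) and Tnfrsf13b (6.901) of its group, while its plasma cell list mean (8.70) was the fourth highest. It is 1 of the 5 arrays of low correlation.

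Over all 30 arrays, deviations of Prg2 from its group mean correlated with those of the plasma cell list at r = 0.74 (Spearman's rho 0.73), with like sign in 22 of 30 arrays. Without the 2 arrays farthest from the median of the plasma cell values, r was 0.75, and without any 1 array it lay between 0.71 and 0.79. For the other lists r was 0.68 with T cell, 0.65 with B cell, 0.61 with immunoglobulin constant and 0.55 with macrophage genes. Without the 2 arrays farthest from the median of each list, these were 0.59, 0.52, 0.56 and 0.64 in the same order, so their ranking changed. Single genes varied within the lists. Over the 14 plasma cell genes tested, r ran from -0.07 (Fkbp11) to 0.66 (Mzb1), with Jchain at 0.44. The B cell gene Spib (0.78) and the T cell gene Cd3e (0.71) lay above each of these, and the B cell gene Pax5 stood at -0.33. For the eosinophil list r was 0.13 (rho 0.11, r without 2 arrays 0.11), and it was 0.18 with mast cell and basophil genes and 0.14 with neutrophil genes. None of the 7 eosinophil genes passed the filter on low values, and their mean had group SDs of 0.04 to 0.09. With so little signal an r near 0 is likely in any case, so it cannot be set against that of the plasma cell list. The points share arrays, depth of signal and normalization. With the 3' minus 5' difference r was 0.03 (rho 0.22, r without 2 arrays 0.12), with like sign in 20 of 30 arrays. All these correlations describe these glands and carry no test.

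**Figure D4:**
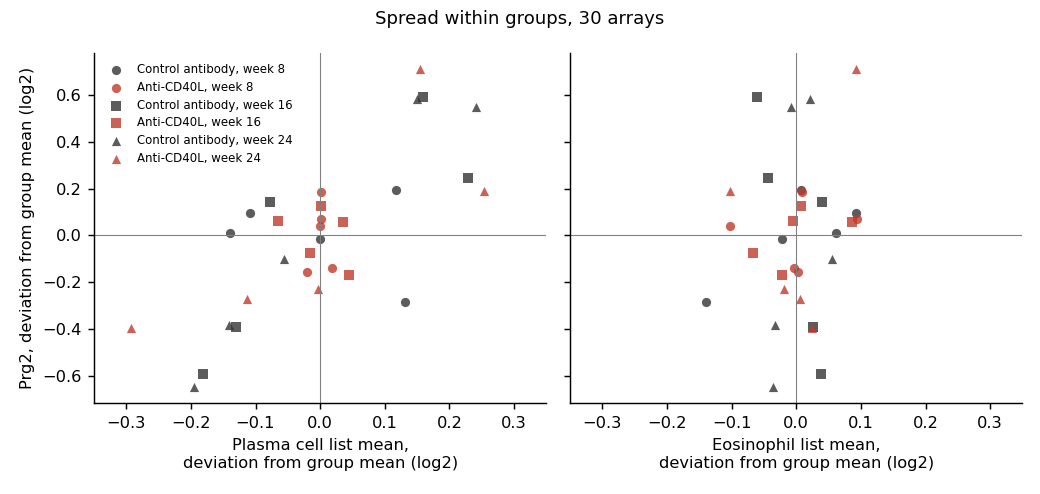
Deviation of Prg2 from its group mean (log2, vertical) against that of the mean of 16 plasma cell genes (left) and of 7 eosinophil genes (right), 30 arrays, coloured by treatment and shaped by age. The left cloud runs from lower left to upper right (r = 0.74), and the right cloud shows no such run (r = 0.13). The 7 eosinophil genes lie under the filter on low values, where an r near 0 is likely in any case.

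Prg2 has a neighbour of its own family, Prg3, next to it in the gene order of the RefSeq annotation of GRCm38.p6. Prg3 group means lay between 4.69 and 4.87 and showed no course like that of Prg2. Prg3 was under the filter on low values, where a weak transcript level and none cannot be told apart, so a change in its transcript may be missed. Of the 10 nearest protein-coding genes, 5 on either side, 7 passed the filter. By limma, 0 of the 7 passed by treatment at week 8, 16 or 24, where 0.0692%, 1.88% and 9.46% of all genes passed. An unadjusted p under 0.05 was found for 2, 1 and 2 of the 7, and for 2019, 1910 and 3853 of the 12998 genes tested. In controls between weeks 8 and 24 the sole gene to pass was Timm10, which fell by 0.48 ± 0.11 (SE; adjusted p 0.00618), where 12.5% of genes passed. Slc43a3, the neighbour on the other side, differed by 0.33 ± 0.18 (SE; adjusted p 0.232) by treatment at week 24. Of 4 core proteins of other secreted proteoglycans, 3 passed the filter. Srgn (serglycin), the granule proteoglycan of blood cells, fell by 1.22 ± 0.26 (SE; adjusted p 0.00833) by treatment at week 24 and rose by 1.09 ± 0.26 (SE; adjusted p 0.00947) in controls between weeks 8 and 24, in the same directions as the Prg2 values. The other 2 were higher by treatment at week 24, opposite to Prg2, and did not pass: Bgn (biglycan) by 0.72 ± 0.26 (SE; adjusted p 0.0724) and Dcn (decorin) by 0.15 ± 0.10 (SE; adjusted p 0.343). Between control weeks 8 and 24, 2 of the 3 rose, where 8.49% of all genes passed as higher, Dcn by 0.36 ± 0.10 (SE; adjusted p 0.0235).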

How the data were processed

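RNA of whole salivary gland was hybridised to Affymetrix mouse arrays, 1 array per gland sample. The table deposited by the authors holds 45101 probe sets over 30 arrays as log2 values (2.757 to 14.457). The normalization is not stated in the labels or headers; the submitters' processing notes name limma without a version. Array medians lay between 5.487 and 5.537. Of the probe sets, 34958 named 1 gene, 932 several and 9211 none. Each of 18193 genes was represented by its brightest probe set, and 12998 exceeded the array median on at least 5 arrays. A single limma 3.58.1 fit (R 4.3.3), with 1 mean for each of 6 groups, gave differences, standard errors and p-values adjusted by Benjamini and Hochberg over all 12998 genes. The script was tested on simulated data. A call is an adjusted p under 0.05. Same-numbered arrays deviated together (every correlation over 0.1) in 1 of 15 pairs of groups, anti-CD40L week 8 with control week 24, which are not compared, so the numbers were not taken to pair arrays.

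Prg2 and the gene lists were chosen with earlier results of these data known. Named genes are Prg2, the 8 genes of highest Pearson's r by each of 3 measures, listed markers of each cell type (up to 4, in list order, and all eosinophil markers), and genes touched by a result; immunoglobulin variable genes are counted, not named. Neighbouring genes, Igk and Il33 were named after their values were seen. Arrays carry no read depth; their number limits the precision.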

Additional observations from a re-analysis of the deposited data

Results flagged for a closer look

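Of 66 groups examined over 11 measures, 1 held an array far from the other 4. In anti-CD40L week 8, Jchain in replicate 5 read 6.717, against 7.296 to 7.453 in the rest. About 1 group in 20 is marked by chance. Prg2 in that array read 4.090, the highest of its group. No group was marked for Prg2 itself.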

How the results depend on the processing

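All 11 Prg2 differences moved by less than 1 SD under 8 alternatives each (quantile normalization, median centring, array weights, the groups compared alone, the replicate block, 3' minus 5' or Amy1 covariates, and, chosen after seeing the data, leaving out 5 arrays of low correlation) and kept their direction, except that the week 8 treatment difference ran from -0.01 to 0.13. Without 1 array, that at week 24 ran from -2.01 to -1.69, and control week 24 minus week 8 from 2.70 to 3.01. No other probe set of Prg2 existed to try. The replicate block left the Prg2 treatment difference at week 24 at -1.83 (SE 0.23); of 75 same-numbered pairs, 18 correlated above 0.1. Counts of list genes moved by over 1.5 times as follows; the cause was not tested, but fewer genes or arrays entered some fits. At week 16, plasma cell genes numbered 8 with array weights in place of 5. With only the groups compared, plasma cell genes numbered 0 at week 8 and 3 for control week 24 minus week 8, and B cell genes 3 at week 24 and 1 for control week 24 minus week 8. With the 3' minus 5' covariate, 2 plasma and 3 B cell genes passed at week 24. With a filter at the 70th percentile, 3 genes of each list passed at week 24 and 3 in control week 24 minus week 8, of 10 plasma and 4 B cell genes tested. Without 1 array, the plasma cell counts were 2 to 6 at week 16, 5 to 10 for control week 24 minus week 8 and 0 to 1 for the difference of differences, and the B cell count 0 to 3 there.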
